A study of Rattus norvegicus with 8 samples.

Results

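Bdnf and Vgf, a pair of genes for secreted neurotrophic signals of sensory neurons, were followed in the dorsal root ganglia (DRG) of male and female rats with and without chronic constriction injury (CCI) of the sciatic nerve. Both were chosen by name, as 2 of the 32623 genes in the count table (Bdnf is ENSRNOG00000047466 and Vgf is ENSRNOG00000001416), and both were among the 16988 genes tested. The study lists both genes as changed in these same libraries, so the direction of their change after CCI is not independent evidence. Each library held poly(A)-selected RNA from the ipsilateral L4-L6 DRGs of 1 Sprague-Dawley rat. The 8 libraries fell into 4 groups of 2 rats each: naive males, CCI males, naive females and CCI females. CCI rats had the sciatic nerve loosely ligated and were taken 14 days later, while naive rats had no operation, so the ligation cannot be told apart from the surgery around it. Total counts ranged from 39489103 to 60818457 per library. Levels are given as CPM, a gene's count relative to its library's total after scaling by the trimmed mean of M values (TMM), and no level is compared between the 2 genes because gene lengths of the build were not used here.

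Bdnf encodes brain-derived neurotrophic factor, a neurotrophin made as a precursor that signals through the receptor kinase TrkB and, with lower affinity, through the receptor encoded by Ngfr. In DRG it is made mainly by peptidergic nociceptors, which carry it to their central terminals in the dorsal horn, and its rise after nerve injury is a known feature of pain models. Vgf encodes a granin-like cargo of dense-core vesicles that prohormone convertases cut into secreted peptides. Transcription of either gene in neurons responds to activity and to cAMP, in part through cAMP response element-binding factors.

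The promoters are shown because both genes rose together after CCI and because both are known targets of cAMP response element-binding factors. RefSeq places 1 start site for Vgf and 6 for Bdnf on GRCr8, a later build than the rn6 of the counts, and each window holds 250 bases before and 50 bases after a start site. Capitals mark matches on either strand to a full cAMP response element (TGACGTCA), its core (CGTCA), an E-box (CACGTG) or an AP-1-like site (TGANTCA), and the full element contains that core on both strands.
Vgf, chr12:25276971-25277270, minus strand: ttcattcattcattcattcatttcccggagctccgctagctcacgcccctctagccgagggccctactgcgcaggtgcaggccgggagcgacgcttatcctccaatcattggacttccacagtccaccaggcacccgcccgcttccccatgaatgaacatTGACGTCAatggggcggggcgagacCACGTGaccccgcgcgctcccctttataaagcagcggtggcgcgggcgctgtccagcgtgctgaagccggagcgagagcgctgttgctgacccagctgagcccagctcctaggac
Bdnf, start site 2, chr3:116620585-116620884, plus strand: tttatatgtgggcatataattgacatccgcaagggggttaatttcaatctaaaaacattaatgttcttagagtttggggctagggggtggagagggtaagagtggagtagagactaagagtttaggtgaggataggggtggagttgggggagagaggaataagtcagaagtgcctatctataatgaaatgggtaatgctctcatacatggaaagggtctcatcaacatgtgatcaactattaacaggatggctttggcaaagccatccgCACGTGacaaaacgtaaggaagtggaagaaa
Bdnf, start site 3, chr3:116621721-116622020, plus strand: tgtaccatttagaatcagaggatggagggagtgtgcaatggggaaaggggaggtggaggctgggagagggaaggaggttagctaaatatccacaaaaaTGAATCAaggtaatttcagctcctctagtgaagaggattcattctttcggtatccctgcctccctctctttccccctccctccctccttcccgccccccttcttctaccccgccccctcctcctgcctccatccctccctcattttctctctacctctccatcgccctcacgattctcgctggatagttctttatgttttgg
Bdnf, start site 4, chr3:116637608-116637907, plus strand: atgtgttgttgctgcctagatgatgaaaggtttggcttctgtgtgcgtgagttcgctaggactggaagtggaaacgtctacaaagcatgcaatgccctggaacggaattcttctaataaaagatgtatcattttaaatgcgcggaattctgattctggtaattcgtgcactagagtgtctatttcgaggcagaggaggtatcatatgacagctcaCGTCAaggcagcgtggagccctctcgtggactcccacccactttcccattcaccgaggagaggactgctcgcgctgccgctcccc
The Vgf window held a full cAMP response element at position -90 and an E-box at -65. The Bdnf windows held no full element. Start site 4 had the core at -35, start site 2 an E-box at 20 and start site 3 an AP-1-like site at -152, and the windows of start sites 1, 5 and 6 held none of the 4 motifs. Over all 33469 promoter windows of that length, 1.83% held the full element, 21.2% the core, 6.42% the E-box and 7.33% the AP-1-like site. A match is a description of letters and not a site in use. Counts were made per gene, so which Bdnf start site was used in these ganglia was not measured.

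The libraries carried the RNA of sensory ganglia. The summed level of the sensory neuron markers (6 of the 14 listed could be matched to an identifier) was between 17647 and 29150 CPM in every library. Cell type markers moved with CCI. Symbols came only from the study's lists of changed genes, so the matched markers were in part picked by their change. Neuron markers summed to 17647 to 19829 CPM in naive males against 28267 to 29150 CPM in CCI males, and to 21158 to 22257 CPM in naive females against 22005 to 26425 CPM in CCI females. Schwann cell and myelin markers (7 of 10 listed) went from 10940 to 13325 CPM in naive males to 3340 to 3496 CPM in CCI males, and from 7676 to 9416 CPM in naive females to 4285 to 5545 CPM in CCI females. Blood markers (7 of 8 listed) stood at 130 CPM in the first naive male and 1388 CPM in the second, at 1351 to 2029 CPM in naive females and at 168 to 252 CPM in all CCI rats. Fibroblast markers (4 of 6 listed) went from 2841 to 2983 CPM in naive males to 1779 to 1829 CPM in CCI males. All 4 were called lower in males, beside 12.5% of all genes, and they stood at 2489 to 2777 CPM in all females. The matched satellite glia marker (1 of 6 listed) went from 80.2 to 106 CPM in naive rats to 46.1 to 63.5 CPM in CCI rats. It was called lower in both sexes, beside 12.5% of all genes in males and 340 of 16988 in females. The matched skeletal muscle marker (1 of 7 listed) stood at 4.68 to 4.9 CPM in CCI males and at 0.0517 to 0.281 CPM in all other rats. Nociceptor subtype markers (5 of 10 listed) went from 1255 to 1496 CPM in naive males to 2456 to 2532 CPM in CCI males. In females they went from 1657 to 2071 CPM when naive to 2239 to 2275 CPM after CCI. Of these 5, 4 were called higher in males, beside 9.05% of all genes, and 0 in females, beside 3.69%. The part of these markers in the changes of Bdnf and Vgf was not tested. Macrophage markers were represented by 1 of 10 listed genes, at 1.54 to 5.96 CPM, and no T cell or endothelial marker could be matched. In bulk RNA, fewer cells of a type and less RNA per cell cannot be told apart.

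Bdnf rose after CCI by a similar factor in both sexes. In the naive males it was counted 1148 and 1318 times, or 21.9 and 24.2 CPM, and in the CCI males 3616 and 2715 times, or 62 and 56.0 CPM. In the naive females it was counted 1286 and 1137 times, or 27.2 and 26.9 CPM, and in the CCI females 2542 and 2541 times, or 65.7 and 65.0 CPM. All 4 CCI rats lay above all 4 naive rats, and the rats of a group lay close together. Within a sex, naive and CCI rats did not overlap for 72.8% of all genes in males and 59.5% in females. The share of genes that separate all 8 rats was not counted. The counting error of these values was between 1.66% and 2.97%. Group means were 23.1 ± 1.57 CPM (SD, n = 2) in naive males, 27.0 ± 0.215 CPM in naive females, 59.0 ± 4.2 CPM in CCI males and 65.3 ± 0.482 CPM in CCI females, which is also the order of the levels. Only the step from naive females to CCI males in that order crosses from uninjured to injured rats. The neighbours on either side of that step did not pass the test of their difference.

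Vgf rose after CCI in both sexes too, but the males of a group differed widely. In the naive males it was counted 1518 and 731 times, or 29.0 and 13.4 CPM, and in the CCI males 6604 and 3115 times, or 113 and 64.3 CPM. In the naive females it was counted 1140 and 1134 times, or 24.1 and 26.8 CPM, and in the CCI females 4012 and 3824 times, or 104 and 97.8 CPM. Again every CCI rat lay above every naive rat, a separation whose share among all genes was not counted. The highest and the lowest CCI level were both in males, as were the highest and the lowest naive level. The counting error was between 1.23% and 3.70%, far below the distance between the males. Group means were 21.2 ± 11.0 CPM (SD, n = 2) in naive males, 25.5 ± 1.92 CPM in naive females, 88.7 ± 34.6 CPM in CCI males and 101 ± 4.13 CPM in CCI females.

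**Figure D1:**
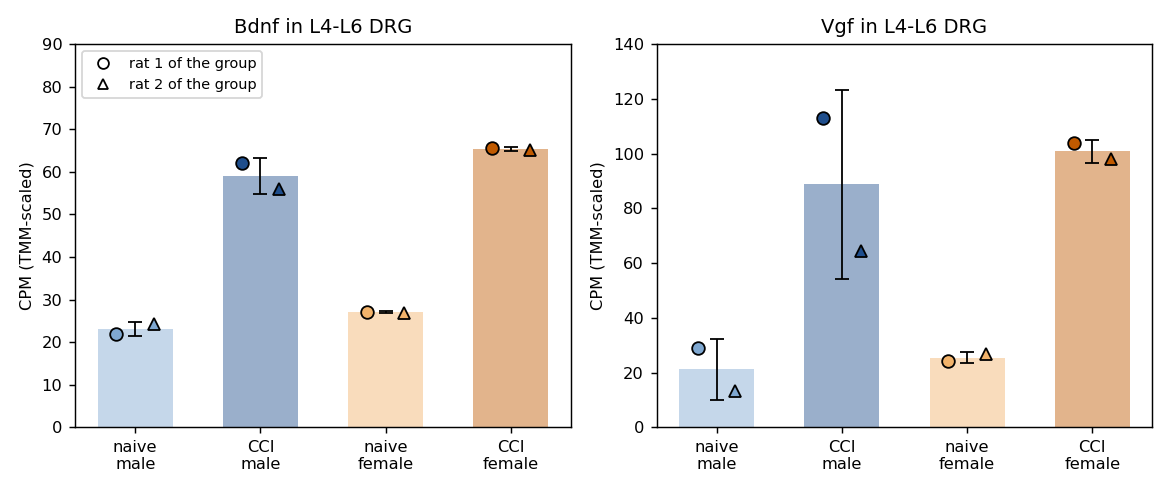
Level of Bdnf (left) and Vgf (right) in CPM in each of the 8 libraries, by group; bars are group means, error bars are the SD of 2 rats, circles mark the rat numbered 1 and triangles the rat numbered 2. All CCI rats lie above all naive rats for both genes, a separation whose share among all genes was not counted. The males are far apart for Vgf, at 29.0 and 13.4 CPM when naive and 113 and 64.3 CPM after CCI.

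In males, both genes were called higher after CCI, where 9.05% of all genes tested were called higher and 12.5% lower. Bdnf rose 2.56-fold, with a log2 fold change (log2FC) of 1.36 (SE 0.0923, 95% confidence interval 1.12 to 1.60, adjusted p = 0.00565). Vgf rose 4.21-fold, with a log2FC of 2.07 and a much wider interval (SE 0.446, 0.92 to 3.22, adjusted p = 0.0224). By log2FC Bdnf ranked 279 and Vgf 147 among the 16988 genes. For both genes the naive and CCI males did not overlap, which held for 72.8% of all genes, and an exact permutation test of 2 rats against 2 cannot go below p = 0.333. The male calls rested on few rats. Without the first CCI male the Vgf log2FC was 1.61 (adjusted p = 0.0964) and that of Bdnf 1.29 (adjusted p = 0.0502), and 0 genes in all were called by edgeR, with 6494 at an unadjusted p under 0.05. Without the second CCI male the Vgf log2FC was 2.42 (adjusted p = 0.0512).

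In females, both genes were again called higher after CCI, where 3.69% of genes were called higher. Bdnf rose 2.4-fold (log2FC 1.26, SE 0.0809, interval 1.08 to 1.45, adjusted p = 0.000296, rank 317). Vgf rose 3.93-fold (log2FC 1.98, SE 0.0929, interval 1.76 to 2.19, adjusted p = 8.91e-05, rank 122). Neither gene overlapped between naive and CCI females, as did not 59.5% of all genes. Leaving out any of the 4 female rats kept both calls, with a log2FC of 1.26 to 1.28 for Bdnf and of 1.90 to 2.06 for Vgf. Over both sexes together, with sex in the model, Bdnf rose by a log2FC of 1.31 (SE 0.0619, interval 1.17 to 1.46, adjusted p = 3.71e-05) and Vgf by 2.03 (SE 0.248, interval 1.46 to 2.59, adjusted p = 0.00114), where 5.76% of genes were called higher. Both calls held without any 1 of the 8 rats, and Vgf kept a log2FC of 2.08 without the males numbered 1 and 1.98 without the males numbered 2, settings chosen after seeing the data.

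The sexes were not shown to differ in either gene. Among naive rats, where 0.0706% of genes were called, Bdnf was at 27.0 CPM in females against 23.1 CPM in males (log2FC 0.23, interval 0.017 to 0.45, adjusted p = 0.178). The naive sexes did not overlap for Bdnf, as for 60.0% of all genes, and overlapped for Vgf (log2FC 0.27, interval -0.64 to 1.17, adjusted p = 0.672). Among CCI rats, where 1.06% of genes were called, the female minus male log2FC was 0.15 for Bdnf (interval -0.025 to 0.33, adjusted p = 0.336) and 0.19 for Vgf (interval -0.40 to 0.77, adjusted p = 0.727). The CCI sexes did not overlap for Bdnf, as for 51.2% of all genes, and overlapped for Vgf. The Vgf comparison turned on the males, with a log2FC of 0.65 without the first CCI male (adjusted p = 0.00641) and of -0.15 without the second (adjusted p = 0.465). Either fit leaves 1 male, assumed to vary like the females, which were close together, so these p-values do not hold the spread of the males.

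The change after CCI was compared between the sexes directly by their interaction, for which 1.59% of genes were called. The female minus male difference in log2FC was -0.08 for Bdnf (SE 0.111, interval -0.34 to 0.18, adjusted p = 0.688) and -0.08 for Vgf (SE 0.50, interval -1.24 to 1.08, adjusted p = 0.937). The estimates are nearly equal, but their precision is not. The Bdnf interval stays within 0.5 on the log2 scale in either direction, whereas that of Vgf spans more than a doubling either way. A sex difference of that size in the Vgf response was not detectable in this fit, which does not pair rats by number.

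**Figure D2:**
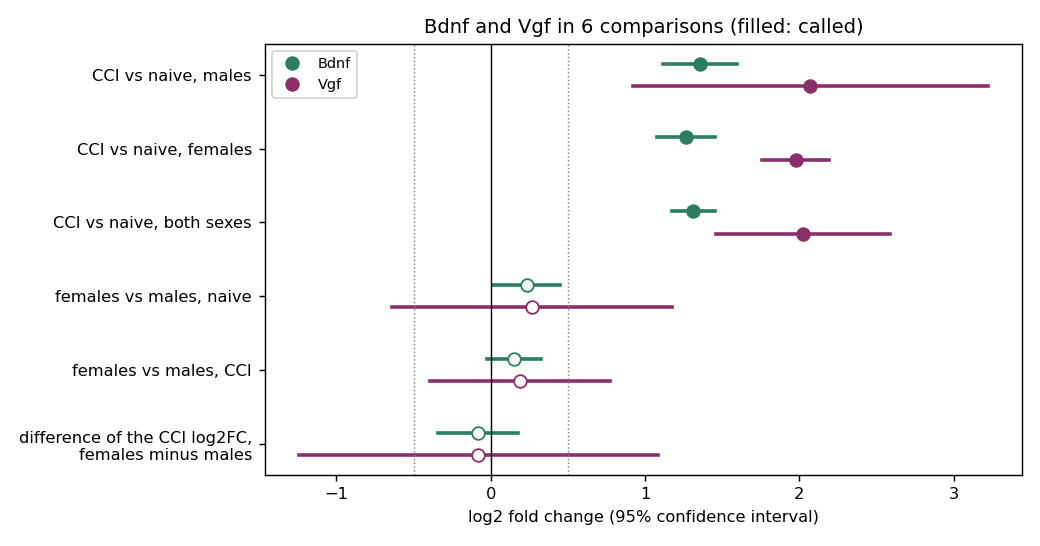
Log2 fold changes (points) and 95% confidence intervals (lines) of Bdnf and Vgf in 6 comparisons; filled points passed the call (adjusted p and a log2FC beyond the dotted lines at -0.5 and 0.5), and open points did not. Both genes are called after CCI in males, females and both sexes together, the comparisons between sexes are open, and every Vgf interval that includes males is wide, as for males at 0.92 to 3.22.

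Vgf differed widely between the males of a group and little between the females. The naive male numbered 1 held 2.16 times the Vgf level of the naive male numbered 2, and 94.7% of genes tested differed less between those rats. The CCI male numbered 1 held 1.76 times the level of the CCI male numbered 2, and 93.3% of genes differed less. Between the females of a group the ratio was 0.899 when naive and 1.06 after CCI. Bdnf differed little between rats in all groups, with ratios of 0.908 and 1.11 in naive and CCI males and of 1.01 in both female groups. The granins Scg2, Scg3 and Scg5 had ratios of 0.849, 0.949 and 0.786 between the naive males and of 1.07, 0.890 and 1.07 between the CCI males, closer to 1 than Vgf. Between females some granins differed more than Vgf, as Scg5 did when naive, at 1.33, and Scg2 and Scg5 after CCI, at 0.887 and 0.902. Blood markers also differed between the naive males, at 130 and 1388 CPM, but were 252 and 222 CPM in the CCI males, and their part in the Vgf difference was not tested. The headers of both male columns numbered 1 carry an extra letter without explanation. Over 16988 genes, differences between rats 1 and 2 correlated between naive and CCI groups with r = 0.73 in males and -0.0079 in females. Shared differences in males were thus not particular to Vgf. Sequencing was done in 2 batches, and which library belonged to which is not given in the sources used here, so a batch effect was not tested here. The study resequenced samples of each batch together to look for batch effects and made no batch correction.

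**Figure D3:**
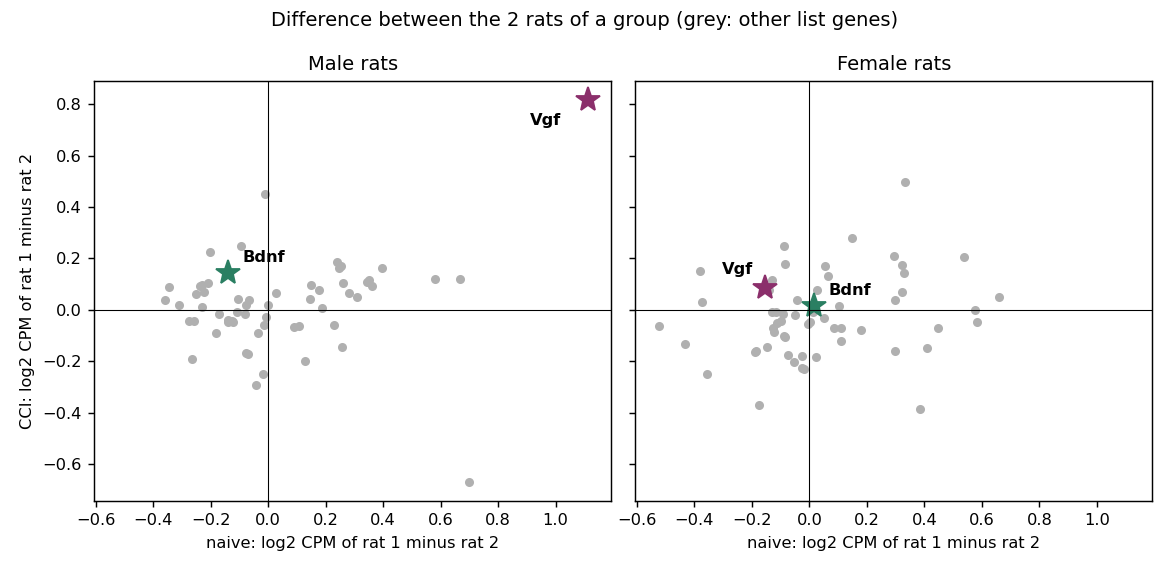
Difference of log2 CPM between the rats numbered 1 and 2 of the naive group (horizontal) and of the CCI group (vertical), in males (left) and females (right), for Bdnf, Vgf and 59 other genes of the pathway and cell marker lists (grey; blood and skeletal muscle markers are left out). Vgf in males lies at 1.11 and 0.82, away from the other genes shown, and Bdnf lies near 0 in both sexes.

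Because any scaling of a library cancels in a ratio within it, the counts of Vgf and Bdnf were also set against each other in each rat, a comparison added after the values were seen. Vgf counts were 1.32 and 0.555 times the Bdnf counts in naive males and 1.83 and 1.15 times in CCI males. They were 0.886 and 0.997 times the Bdnf counts in naive females and 1.58 and 1.5 times in CCI females. The ratio did not overlap between naive and CCI females, a separation whose share among other pairs of genes was not counted. It did overlap in males, where the first naive male was above the second CCI male. Over both sexes its log2 rose from a mean of -0.16 ± 0.52 to 0.58 ± 0.28 (SD, n = 4 rats each), a difference of 0.74 that did not pass a 2-sided exact permutation test (p = 0.0571, smallest possible 0.0286). The test ignored sex and replicate number. In females the log2FC intervals of Bdnf and Vgf, 1.08 to 1.45 and 1.76 to 2.19, did not overlap. In males they were 1.12 to 1.60 and 0.92 to 3.22 and overlapped. Both intervals of a sex come from the same 4 libraries, and setting them side by side is no test of a difference between the genes. The ratio says nothing of which gene had more transcripts.

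Bdnf and Vgf were higher after CCI also relative to the neuron markers, by smaller factors in males. Per 1000 CPM of summed neuron markers, Bdnf stood at 1.24 and 1.22 in naive males and 2.19 and 1.92 in CCI males, and at 1.28 and 1.21 in naive females and 2.99 and 2.46 in CCI females. Vgf stood at 1.64 and 0.676 in naive males and 4.0 and 2.2 in CCI males, and at 1.14 and 1.20 in naive females and 4.71 and 3.70 in CCI females. No CCI rat fell to the level of a naive rat of its sex on this scale, a separation whose share among all genes was not counted. With libraries scaled to those markers, the log2FC in males was 0.74 for Bdnf (adjusted p = 0.00275) and 1.42 for Vgf (adjusted p = 0.0221). In females it was 1.13 for Bdnf (adjusted p = 1.52e-09) and 1.85 for Vgf (adjusted p = 1.03e-26). The lowest adjusted p of any gene in that female edgeR fit was 1.92e-117, against 8.12e-06 in the main fit of the same rats. The small female p-values therefore do not show a firmer rise than the main fit. This scaling moved the median of all genes by -0.63 in males and -0.13 in females. It moves every gene by about that amount, so it bears on the size of a change and not on the order of genes. Only 6 of the 14 neuron markers entered (Uchl1, Snap25, Avil, Nefl, Nefm and Nefh). Of these, 5 were themselves called higher in males, beside 9.05% of all genes. The neurofilament genes Nefl, Nefm and Nefh held most of the sum, at means of 5630, 6241 and 3669 CPM in naive males. Uchl1, Snap25 and Avil were at 1426, 1237 and 535 CPM there. The values per 1000 CPM thus mostly follow neurofilament RNA, while the scaled fits weighed all 6 alike. How far the male values follow the share of neuron RNA was not tested.

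The partners of both genes were taken from lists of their receptors, processing enzymes, signalling adaptors, regulators and response genes. Symbols could be assigned only from the study's own lists of changed genes, which cover 11.5% of the genes tested, so the matched members were in part picked by their change and their counts are no independent evidence. No other neurotrophin and no reported receptor of VGF peptides could be matched, nor could Ntrk2 or Sort1, and these were not analysed here. The median log2FC of all genes was -0.01 in males and -0.02 in females.

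Among the neurotrophin receptors, 2 of 8 were matched, and both were called higher in males and neither in females, where more genes were called higher in males overall (9.05% against 3.69%). Ngfr, the receptor shared by all neurotrophins and their precursors, went from 478 to 571 CPM in naive males to 907 to 936 CPM in CCI males (log2FC 0.82, adjusted p = 0.00799). In females its log2FC was 0.41 (adjusted p = 0.0224), under the fold threshold. Sorcs3, a sortilin-family receptor, had a log2FC of 0.86 in males (adjusted p = 0.00636) and of 0.33 in females (adjusted p = 0.0585). The interaction of sex and CCI was not called for Ngfr (adjusted p = 0.121) or Sorcs3 (adjusted p = 0.0776), so a difference between the sexes was not shown. Of the factors and receptors of the GDNF and LIF type, 3 of 16 were matched. Gfra4, a coreceptor of the GDNF family that is named here after its values were seen, had low levels, at 0.567 to 1.99 CPM, with a log2FC of -0.93 in males (adjusted p = 0.116) and 0.11 in females (adjusted p = 0.879). Lifr, a subunit of the receptors for leukemia inhibitory factor and ciliary neurotrophic factor, rose in males (0.95, adjusted p = 0.00565) and females (0.70, adjusted p = 0.00661), while Cntf, which encodes ciliary neurotrophic factor and is a product of Schwann cells, fell in males by 0.71 on the log2 scale (adjusted p = 0.0181). Cntf moved beside the Schwann cell markers, whose part in its change was not tested.

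The other granins, which share the dense-core vesicles with VGF peptides, were matched for Scg2, Scg3 and Scg5, and all 3 were called higher in males and 1 in females (9.05% and 3.69% of all genes), with log2FC below that of Vgf. Scg2 rose in males (log2FC 1.04, adjusted p = 0.00567) and in females (0.59, adjusted p = 0.0101). Scg3 rose in males (0.82, adjusted p = 0.00573), and its 0.39 in females was under the fold threshold (adjusted p = 0.0256). Scg5 encodes a chaperone of the convertase made from Pcsk2 and was called higher in males (0.66, adjusted p = 0.0192), with a log2FC of -0.11 in females (adjusted p = 0.610). Its interaction of sex and CCI was not called (adjusted p = 0.0989).

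Of the enzymes that process prohormones and proneurotrophins, 2 of 12 were matched, both called higher in males and neither in females, beside the same shares of 9.05% and 3.69% of all genes. Pcsk2, a convertase that cuts VGF, had a log2FC of 0.84 in males (adjusted p = 0.00626) and 0.30 in females (adjusted p = 0.0691). Cpe, the carboxypeptidase that trims the cut peptides and also sorts proBDNF, had 0.64 in males (adjusted p = 0.00636) and 0.24 in females (adjusted p = 0.116). Scaling libraries to neuron markers lowers every male log2FC by about the same 0.63, which left Ngfr, Sorcs3, Lifr, Scg2, Scg3, Scg5, Pcsk2 and Cpe between 0.02 and 0.42, under the fold threshold.

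The matched adaptors, regulators and response genes did not rise with Bdnf and Vgf in males. Of the Trk signalling adaptors and kinases, 4 of 22 were matched, with a median log2FC of -0.06 in males and -0.02 in females, and Sh2b1, an adaptor of Trk receptors, fell in males by 0.51 on the log2 scale (adjusted p = 0.0101). Of the transcription factors known to act on either gene, 3 of 16 were matched, and Nfatc4, an activity-dependent factor, fell in males by 1.42 on the log2 scale (adjusted p = 0.00565). Of the activity and neurotrophin response genes, 5 of 18 were matched, with a median of -0.49 in males and 0.08 in females. Egr3 fell in males by 1.10 on the log2 scale (adjusted p = 0.00565) and Egr2, which is also a regulator of myelin genes in Schwann cells, by 0.60 (adjusted p = 0.0212). Fos, an immediate early gene, had a log2FC of -0.32 in males (adjusted p = 0.223) and rose in females by 0.90 (adjusted p = 0.0255), with an interaction that was not called (adjusted p = 0.0659).

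**Figure D4:**
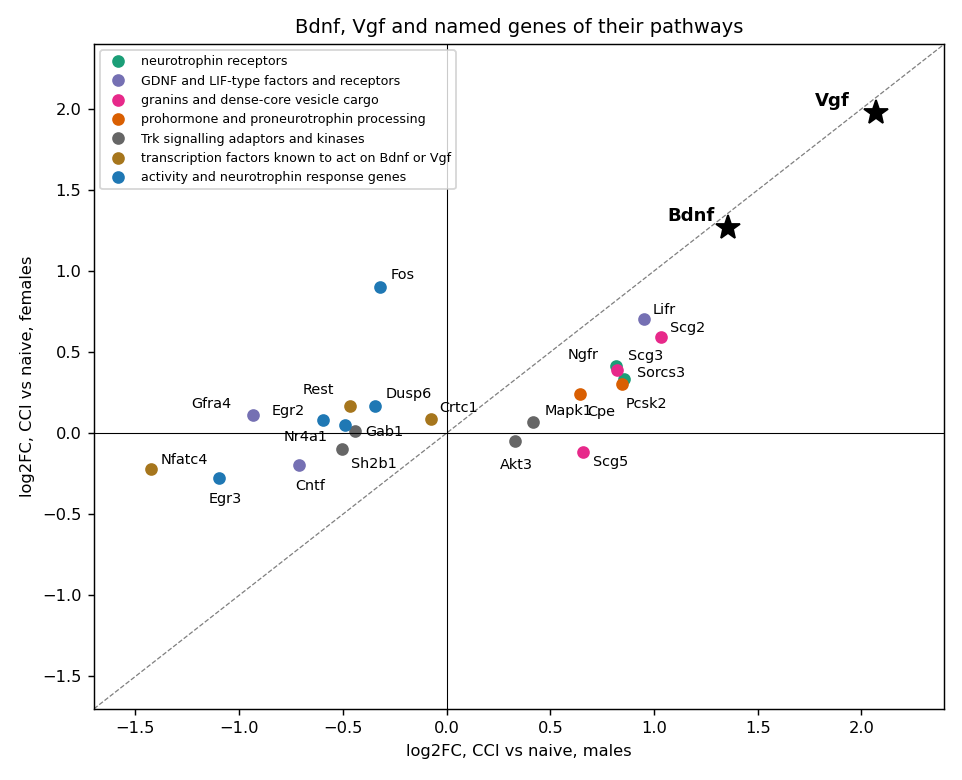
Log2FC after CCI in males (horizontal) and females (vertical) of Bdnf and Vgf (stars) and of the matched genes of 7 pathway lists (points, coloured by list); the dashed line marks equal change. Bdnf at 1.36 and 1.26 and Vgf at 2.07 and 1.98 lie near the dashed line and beyond all other genes shown, and the matched neurotrophin receptors, granins and processing enzymes lie to the right of it.

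The rise of Bdnf and Vgf stood beside that of the injury genes. Of 16 injury genes of sensory neurons, 12 were matched, and their median log2FC was 2.19 in males and 2.48 in females. All 12 were called higher in both sexes, beside 9.05% of all genes in males and 3.69% in females. They were matched through the study's lists of genes changed in these libraries. Their count and median were thus in part set by that choice and are no independent evidence. Atf3, the stress-induced transcription factor of injured sensory neurons, went from 11.0 to 11.7 CPM in naive males to 67.7 to 70.9 CPM in CCI males, a log2FC of 2.61 (adjusted p = 0.00315). The neuropeptide gene Vip had log2FC of 5.65 in males and 5.62 in females. Vgf was near the median of this list in males and under it in females, and Bdnf was under it in both.

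The genes most like each member were sought among the 13082 genes whose log2 CPM averaged 1 or more, by Pearson correlation of log2 CPM over the 8 libraries. The points share the step from naive to CCI, so high values describe a shape and are given without a p. Closest to Bdnf was Syt4, a synaptotagmin of dense-core vesicles (r = 0.999), whose log2FC was 1.39 in males and 1.25 in females. Next came ENSRNOG00000017438 (0.997), Cacna2d1, the calcium channel subunit bound by gabapentin (0.997, log2FC 1.82 in males and 1.92 in females), ENSRNOG00000032656 (0.997) and ENSRNOG00000045821 (0.996). Closest to Vgf were ENSRNOG00000003472 (r = 0.989), ENSRNOG00000004083 (0.985), ENSRNOG00000015148 (0.978), ENSRNOG00000024663 (0.977) and ENSRNOG00000015511 (0.973). Their log2FC in males was between 0.17 and 0.98, so genes with the Vgf shape had smaller fold changes than Vgf. Bdnf was number 99 in likeness to Vgf, and Vgf was number 714 in likeness to Bdnf. By rank correlation instead, 0 of the 5 genes closest to Bdnf and 2 of the 5 closest to Vgf stayed among the closest 5.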

How the data were processed

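RNA-seq was made from the ipsilateral L4-L6 DRGs of 8 rats, 2 in each of 4 groups taken from the labels. By the study's methods, poly(A) libraries that keep the strand were sequenced in 2 batches and aligned to rn6, and reads were counted per Ensembl gene with featureCounts. The submitters' processing notes name CASAVA 1.8.2 and HISAT2. The deposited values are raw counts that the authors did not normalize. Analyses used R 4.3.3 with edgeR 4.0.16 and DESeq2 1.42.0. Genes were kept by filterByExpr (minimum count 10, minimum total count 15), libraries were scaled by TMM, and 2 was the prior count of log2 CPM. Each comparison was fitted on its own 4 libraries, and the interaction and the comparison over both sexes on all 8, with the quasi-likelihood test of edgeR and p-values adjusted after Benjamini and Hochberg over 16988 genes. Genes were called at an adjusted p below 0.05 with a log2FC beyond 0.5 in either direction, or at the adjusted p alone for the interaction. The naive and CCI groups each serve in several comparisons, which are therefore not independent. p-values of the fits rest on the spread between these rats, moderated toward the spread of all genes. For 1 gene they therefore do not measure the spread of its own rats alone. Counting errors cover counting only. Fits were tested on simulated data with known changes, drawn independently for each rat with the same dispersion for every gene. The simulation held no difference between rats shared by naive and CCI groups, unlike the males, so it checks the code only. Named genes were Bdnf, Vgf, at most 4 called genes of each list with the smallest adjusted p, the receptors and granins that could be matched, and the 5 genes most like each member. Ensembl identifiers and symbols were paired for 1961 genes from the study's lists. The Egr2 gene stands in both the Schwann cell and the response list. The members and lists were chosen with earlier results of these data known. Alternatives were DESeq2, a fit on all 8 libraries, DESeq2's size factors, scaling to neuron markers, no filter, a replicate block and leaving out each rat.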

Additional observations from a re-analysis of the deposited data

Results flagged for a closer look

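The response of Atf3 to CCI was called different between the sexes by a test of the interaction itself, close to the threshold. The lowest adjusted p of any gene in that edgeR test was 0.0402. The female minus male difference in log2FC was 0.78 (SE 0.111, adjusted p = 0.0412, edgeR), with Atf3 at 67.7 to 70.9 CPM in CCI males and 123 to 133 CPM in CCI females, against 11.0 to 12.7 CPM in all naive rats. The call rested on single rats: without the first naive male, the second CCI male or the second CCI female, 0 genes passed the interaction test in edgeR, Atf3 included (2728, 3147 and 3887 genes had an unadjusted p under 0.05). Atf3 was not alone among the 12 matched injury genes of sensory neurons. Of these, 2 were called with a larger female response, beside 1.59% of all genes in either direction, and their median difference was 0.50. Among CCI rats, 7 of the 12 were called higher in females and 0 lower, beside 1.06% of all genes. They were matched through the study's lists, so these counts are no independent evidence. The interaction was not called for Bdnf or Vgf.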

How the results depend on the processing

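The rise of Bdnf and Vgf after CCI kept its direction under every alternative run. It kept its call in females and over both sexes under all of them, and in males under all but 3 values: Bdnf without the first CCI male, and Vgf without either CCI male. Leaving out each rat gave a male log2FC of 1.28 to 1.43 for Bdnf and 1.61 to 2.72 for Vgf. For Vgf it gave -0.19 to 0.93 between naive sexes, -0.15 to 0.65 between CCI sexes and -0.74 to 0.39 for the interaction, so the sign of these depends on 1 male. Scaling to neuron markers turned the sign of values that were not called: Bdnf between naive sexes to -0.0022, the interaction to 0.40 for Bdnf and 0.42 for Vgf, and Egr2 in females to -0.052. Without the males numbered 2 the Vgf interaction was 0.023, and without those numbered 1 the Bdnf interaction was 0.061, both chosen after seeing the data. In females, leaving out each rat gave -0.30 to 0.10 for Scg5 and -0.13 to 0.32 for Egr2. Of the male calls of partner genes, all were lost without the first CCI male, those of Ngfr, Cntf, Scg5, Sh2b1 and Egr2 without the second, and those of Scg5, Sh2b1 and Egr2 without the first naive male; the female calls of Lifr, Scg2 and Fos were lost without either CCI female (adjusted p from 0.0578 to 0.184, edgeR). The difference in the log2 ratio of Vgf to Bdnf was 0.50 to 0.92, and passed the exact permutation test only without the first naive male.

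Replicate numbers are shared between groups but nothing says that they pair rats. Differences between rats 1 and 2 correlated across 16988 genes between naive and CCI groups with r = 0.73 in males and -0.0079 in females. With the number as a replicate block, the male log2FC was 1.36 for Bdnf (SE 0.0929) and 2.11 for Vgf (SE 0.0958, against 0.446 unpaired), the female log2FC 1.26 and 1.98, and the genes called were 4478 in males, 1180 in females, 6 between naive sexes, 68 between CCI sexes, 314 for the interaction and 2323 over both sexes. The block changed no call of Bdnf or Vgf.

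Counts of called genes depended more on the setting. Main counts were 3663 in males, 967 in females, 12 between naive sexes, 180 between CCI sexes, 270 for the interaction and 2408 over both sexes. Scaling to neuron markers gave 9117, 1773, 1011, 706, 3803 and 5219, of which 198 were higher and 8919 lower in males. DESeq2 gave 1002 between naive sexes, 367 between CCI sexes and 1585 for the interaction, and no filter gave 130, 284 and 1032. The fit on all 8 libraries gave 906 between naive sexes. Leaving out each rat gave 0 to 3722 in males, 84 to 1836 in females, 6 to 327 between naive sexes, 32 to 656 between CCI sexes, 0 to 563 for the interaction (2728 to 3887 at an unadjusted p under 0.05 where edgeR called 0) and 1641 to 2868 over both sexes. Without the males numbered 1 or numbered 2, 1469 or 1485 genes were called over both sexes and 1 or 38 for the interaction. The cause of these changes was not tested. With 2 rats a group and no known pairing, the spread between males limits what can be said of Vgf, while counting error limits neither gene.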
